A study of Mus musculus with 12 samples.

Results

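The transcripts of 9 genes of heme synthesis were followed through the fetal and newborn mouse liver at the level of single cells. The 9 genes were chosen by name: Alas1, Alas2, Alad, Uros, Urod, Cpox, Ppox and Fech, which encode enzymes of the pathway, and Slc25a37, which encodes the iron importer of erythroid mitochondria. All 9 were present under 1 identifier each among the 31053 genes counted in the late fetus (E16.5, in embryonic days) and the 22597 genes counted at postnatal day 3 (P3).

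Heme is built from glycine and succinyl-CoA in steps that begin in the mitochondrion, continue in the cytosol and end in the mitochondrion, where ferrochelatase inserts iron into protoporphyrin. The first step is carried out by 1 of 2 synthases: Alas2, the erythroid form, and Alas1, the form of all other tissues, which is repressed by heme in hepatocytes. The late fetal liver is a site of red cell formation and most heme made there goes into hemoglobin, whereas hepatocytes make heme for cytochromes.

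The livers came from crosses of heterozygous parents that carry Nodder (Ndr), a missense allele of the Notch ligand gene Jag1, and the genotypes were Jag1+/+, Jag1Ndr/+ and Jag1Ndr/Ndr with 2 labelled animals for each genotype and stage. TrypLE was part of the digestion in fetuses but not in pups, and magnetic beads took out dead cells ahead of droplet capture. Homozygous pups at P3 were recognised by jaundice, per the labels, so at that stage the homozygous label also carries that selection. The 12 deposited matrices held fewer than 12 libraries. Among fetuses, 1 matrix had been entered both as Jag1+/+ replicate 2 and as Jag1Ndr/+ replicate 2; it was used once and is called the shared library. With it, E16.5 had 5 libraries, and their values are always listed in this order: Jag1+/+ replicate 1, then the shared library, then Jag1Ndr/+ replicate 1, and last both replicates of Jag1Ndr/Ndr. At P3, the barcodes labelled Jag1+/+ replicate 1 (library A) shared 19927 barcodes with Jag1Ndr/Ndr replicate 1 (68.4% of the smaller matrix), and those of Jag1+/+ replicate 2 (library B) held 100% of the barcodes of Jag1Ndr/+ replicate 2, so the genotypes of A and B were unclear. Library C was the remainder of Jag1Ndr/Ndr replicate 1 after removal of the barcodes of A, and library D was Jag1Ndr/+ replicate 1. No P3 library was therefore wild type by an undisputed label.

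The libraries held 15024 to 29034 barcodes with at least 1000 UMIs (unique transcript counts) and at most 15% mitochondrial UMIs, with medians of 2961 to 9256 UMIs. Cells were clustered without the 9 genes and the listed pathway genes and named from marker genes; 64745 cells at E16.5 and 31796 at P3 were erythroid-like, and 5499 and 1201 were hepatocyte-like. Jag1 itself measured 0.234 to 1.75 CPM (UMIs of the gene scaled to a fixed total of all UMIs) per library, and since the allele is a missense change this level does not check the labels. Globin RNA was present in every class of cells. Cells of the named classes other than erythroid-like carried median globin counts of 852.5 to 2334 UMIs per class and library in fetuses and of 12 to 1744 in pups, where the highest value was that of hepatocyte-like cells in library C. Levels of the 9 genes outside the erythroid-like class are given beside that fact. Because globin took 45.5% to 68.9% of erythroid-like UMIs in fetal libraries but 34.8% to 51.1% in those of pups, levels in erythroid-like cells are given as CPM over non-globin UMIs only (ngCPM) unless plain CPM is named.

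Promoter windows are shown for Alas2 and Cpox because the results turn on how differently these 2 erythroid-rich transcripts run along the globin share of erythroid-like cells and between stages. GATA1, the principal erythroid transcription factor, binds GATA motifs. The windows lie 250 to 51 bases before the RefSeq transcription start (GRCm38.p6), are written 5′ to 3′ on the gene's own strand, and carry in capitals every match, on either strand, to the motif AGATAA, to the motif AGATAG, to the motif TGATAA and to the motif TGATAG. The first is Alas2, chrX:150547167-150547366, plus strand, and the other Cpox, chr16:58669958-58670157, plus strand.
Alas2: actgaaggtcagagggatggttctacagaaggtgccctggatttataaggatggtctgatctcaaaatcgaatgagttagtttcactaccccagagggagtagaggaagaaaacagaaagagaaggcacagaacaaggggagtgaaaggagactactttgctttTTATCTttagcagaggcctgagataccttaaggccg
Cpox: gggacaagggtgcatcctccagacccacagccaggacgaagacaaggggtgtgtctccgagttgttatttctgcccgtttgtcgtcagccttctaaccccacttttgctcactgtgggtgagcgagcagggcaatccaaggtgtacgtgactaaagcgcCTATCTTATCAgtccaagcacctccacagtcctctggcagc
The Alas2 window held 1 match, beginning 86 bases before the start. The Cpox window held 2 matches, beginning 91 and 86 bases before the start, which overlap. Of 32851 windows of the same length, 23.1% held at least 1 match and 4.79% held 2 or more. An entry was found for 7 of the 9 genes; 1 of the 2 Uros windows held 2 matches, and the windows of Alas1, Alad, Urod and Ppox held none of these letters.

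The Alas2 transcript also carries, in its 5′ untranslated region, an iron-responsive element whose loop is read by the iron regulatory proteins. This links translation of the erythroid synthase to iron supply, a step that counts of RNA do not show. The 30 bases around the loop of the longest protein-coding transcript (bases 84 to 113, GENCODE M21), with the loop in capitals, read as follows.
Alas2 element: ttggttcgtcctCAGTGCagggcaacagga

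The 2 synthases had their highest levels in different classes of cells. Alas2 was highest in erythroid-like cells in 5 of 5 E16.5 libraries and 4 of 4 P3 libraries, at 759 ± 74.4 CPM (SD, n = 5) and 1185 ± 205 CPM (SD, n = 4). Alas1 was highest in neutrophil-like cells in the same 9 libraries, at 139 ± 23.8 CPM (SD, n = 5) and 281 ± 84.8 CPM (SD, n = 4). Erythroid-like cells held the lowest mean Alas1 level of all named classes at both stages, 4.68 ± 2.08 CPM (SD, n = 5) and 7.28 ± 2.04 CPM (SD, n = 4). The order of classes is a description with no test, because classes were built from the same cells.

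Alas1 (ENSMUSG00000032786, chromosome 9, 106233455 to 106248654, minus strand) measured 153 CPM in neutrophil-like cells of Jag1+/+ replicate 1, 174 CPM in the shared library, 126 CPM in Jag1Ndr/+ replicate 1, and 126 and 117 CPM in the Jag1Ndr/Ndr replicates. At P3 it measured 200, 377, 220 and 327 CPM in libraries A, B, C and D. All 4 P3 values lay above all 5 E16.5 values. Within this class the level was highest in the cluster with Elane, Prtn3, Ctsg and Mpo, granule genes of early neutrophil precursors, among their leading genes. There Alas1 reached 308, 368, 376, 291 and 228 CPM in the E16.5 libraries in the order above, and 451, 863, 494 and 669 CPM in libraries A to D. These clusters were singled out after their values were seen, and Alas1 stood among the 10 leading genes of both. Other classes fell far below: monocyte-like cells measured 33.3 ± 4.68 CPM at E16.5 and 52.1 ± 8.91 CPM at P3, and hepatocyte-like cells 14.7 ± 1.05 CPM and 32.1 ± 15.8 CPM (SD, n = 5 and n = 4). Dendritic-like cells, named at P3 only, measured 56.0 ± 15.6 CPM (SD, n = 4), close to monocyte-like and to basophil and mast-like cells within the spread over libraries.

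**Figure D1:**
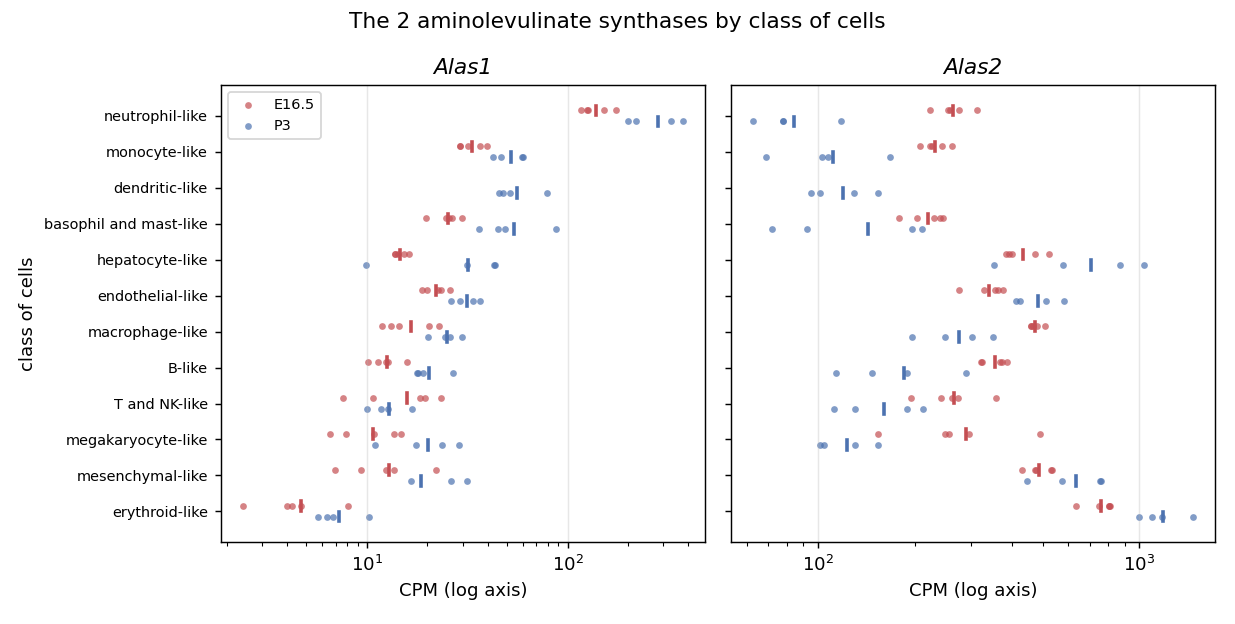
CPM of Alas1 (left) and Alas2 (right) on a log axis for each class of cells; each point is a library (5 at E16.5 in red, 4 at P3 in blue) and each bar the mean, and a library with no UMI in a class has no point. Neutrophil-like cells stand apart at the high end for Alas1 (139 and 281 CPM) and erythroid-like cells at the low end, while erythroid-like cells lie highest for Alas2 (759 and 1185 CPM).

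The other 7 genes were highest in erythroid-like cells in all 9 libraries on ngCPM. On plain CPM, erythroid-like cells were highest for each of these 7 in all 4 P3 libraries, but at E16.5 only in 1 of 5 libraries for Uros and Cpox, 2 for Alad, 3 for Ppox, and 4 for Urod, Fech and Slc25a37; the class above them was then hepatocyte-like or macrophage-like. Cpox, for example, measured 830 ± 396 CPM in erythroid-like, 723 ± 128 CPM in hepatocyte-like and 864 ± 277 CPM in macrophage-like cells at E16.5 (SD, n = 5). At P3 the corresponding levels were 545 ± 106, 248 ± 60.2 and 80.4 ± 54.1 CPM (SD, n = 4). Macrophages of the liver take up erythroid nuclei and aged red cells. The ratio of Slc25a37 to Alas2 UMIs in the classes other than erythroid-like varied within a library by 1.20-fold to 1.79-fold at E16.5, and by 1.47-fold to 2.32-fold at P3. Alad per Alas2 varied by 1.25-fold to 2.62-fold over the fetal libraries and by 2.35-fold to 6.79-fold over the P3 libraries. Cpox per Alas2 varied by 1.33-fold to 2.67-fold and by 2.91-fold to 6.84-fold. At E16.5 the Slc25a37 ratio in those classes lay above that of erythroid-like cells of the same library in all 5 libraries. The part of RNA from erythroid cells in the levels of these 7 genes outside erythroid-like cells was not tested, and the levels there are given as measured.

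Alas1 did not follow that pattern: neutrophil-like cells stood above erythroid-like cells in all 9 libraries. Among 9368 genes compared over 14 class and range means at E16.5, the transcripts most like Alas1 were Olr1, Abca13, Mgl2, Cd33 and Dgat1, with Pearson r of log2 levels from 0.948 to 0.939. At P3, over 15 means and 10130 genes, they were Gm1604b, Slc39a11, Tmem38b, Dhrs7 and Ncf1, with r from 0.891 to 0.867. Among the 5 most like Alas2 were Fam46c, Ube2l6, Rnf11 and Fam214b at E16.5, with r from 0.997 to 0.988, and those at P3 were Syt14, Ube2l6, Ccdc92b, Ypel4 and Tent5c, with r from 0.986 to 0.980. Fam46c and Tent5c are names of 1 gene, whose symbol differed between the 2 gene lists. Among the 5 most like Slc25a37 were Syt14, Trim10, F930017D23Rik and Trak2 at E16.5, and those at P3 were Slc4a1, Trak2, Gm16867, Ranbp10 and Trim10, with r from 0.993 to 0.989 over both stages. Slc4a1 encodes the red cell anion exchanger. The points share libraries and depth, and these correlations are descriptions.

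Hepatocyte-like cells were examined again with only the cells in which globin made up under 10% of UMIs, a choice made after the values of the whole class were seen. These were 72 to 177 cells per library at E16.5 and 57 to 313 at P3. In them Alas1 measured 25.4, 21.4, 28.2, 24.9 and 19.8 CPM in the 5 E16.5 libraries and 46.7, 66.9, 17.1 and 48.8 CPM in libraries A to D. Library C, with 8 Alas1 UMIs, lay below all E16.5 libraries and the other 3 lay above them. The difference passed edgeR's quasi-likelihood test at 1.20 on the log2 scale (SE 0.253, adjusted p = 0.0020). Cpox in these cells measured 375 ± 75.8 CPM at E16.5 and 153 ± 49.8 CPM at P3, and Slc25a37 401 ± 36.0 and 38.1 ± 15.5 CPM (SD, n = 5 and n = 4). Both were lower at P3, by log2 fold changes of -1.09 (adjusted p = 0.00096) and -3.24 (adjusted p = 3.5e-07). Alas2 was lower in these cells too (-1.14, adjusted p = 0.0076). The hepatocyte-like cluster with the least globin had a median globin share of 4.05% at E16.5 and 0.44% at P3. The part of RNA from erythroid cells in these differences was not tested.

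Erythroid-like cells were divided into 4 ranges by the share of their UMIs that came from globin. The ranges were under 10%, 10 to 30%, 30 to 50%, and 50% or more. A globin range is a position on a scale and not a cell type; 0.656% to 4.57% of erythroid-like cells lay within 2 percentage points of a boundary. At E16.5, 48.0% to 83.2% of a library's erythroid-like cells fell in the highest range and 0.744% to 2.45% in the lowest. At P3 these shares were 63.1% to 80.6% and 12.0% to 17.4%. Levels along the ranges are descriptions, since the ranges were cut in the same cells. In fetal Jag1+/+ replicate 1 the ranges under 50% held medians of 1117.5, 1311.5 and 1205.5 globin UMIs per cell, at depths of 31744, 5916 and 3403 UMIs. B-like and hepatocyte-like cells there held 1041 and 1152.5. Medians were higher in the 30 to 50% range of the shared library (1898.5) and the 10 to 30% range of Jag1Ndr/Ndr replicate 1 (2210.5). The part of depth and of RNA from other cells in the levels by range was not tested.

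Iron entry and the first step rose together along the ranges. Alas2 (ENSMUSG00000025270, chromosome X, 150547375 to 150570638, plus strand) averaged 111 ± 33.4, 524 ± 153, 1133 ± 151 and 3365 ± 1126 ngCPM from the lowest to the highest range at E16.5 (SD, n = 5). At P3 it averaged 80.7 ± 30.6, 909 ± 191, 2254 ± 379 and 9878 ± 2073 (SD, n = 4). The highest range exceeded the lowest by 16.03-fold to 67.7-fold over the E16.5 libraries and by 81.8-fold to 263-fold over the P3 libraries. The Alas2 mean of the lowest range lay below that of every other named class at both stages. The lowest of those were 250 ngCPM in basophil and mast-like cells at E16.5 and 86.8 in neutrophil-like cells at P3. The part of RNA from other cells in these folds was not tested. Slc25a37 (ENSMUSG00000034248, chromosome 14, 69241848 to 69285112, minus strand), which brings iron into the mitochondrion, averaged 609 ± 262, 2178 ± 1012, 4123 ± 1185 and 5850 ± 1092 at E16.5 and 140 ± 72.2, 775 ± 268, 1877 ± 514 and 3722 ± 1044 at P3. Its fold was 6.98 to 17.3 over the E16.5 libraries and 22.3 to 47.9 over the P3 libraries. Both therefore climbed in every step of the mean at both stages. Alas1 stayed between 7.32 and 13.5 ngCPM in the mean of every range at both stages.

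The last enzyme of the pathway also climbed along the ranges. Fech (ENSMUSG00000024588, chromosome 18, 64452914 to 64490251, minus strand), the ferrochelatase, averaged 359 ± 95.3, 810 ± 277, 1411 ± 285 and 2184 ± 365 at E16.5 and 267 ± 71.7, 777 ± 157, 1613 ± 186 and 3854 ± 794 at P3. Its highest range exceeded its lowest by 4.72-fold to 9.47-fold at E16.5 and by 11.2-fold to 17.2-fold at P3. Urod (ENSMUSG00000028684, chromosome 4, 116989965 to 116994413, minus strand), the cytosolic uroporphyrinogen decarboxylase, also climbed to the highest range, by 3.38-fold to 4.77-fold and by 4.89-fold to 5.93-fold.

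Of the other steps, Cpox, Alad and Uros had a different shape, as did Ppox at E16.5. Cpox (ENSMUSG00000022742, chromosome 16, 58670292 to 58717636, plus strand), the coproporphyrinogen oxidase, had its highest mean in the 30 to 50% range, at 2692 ± 557 ngCPM at E16.5 and 2039 ± 181 at P3, and fell to 1858 ± 356 and 1321 ± 154 in the highest range. Alad (ENSMUSG00000028393, chromosome 4, 62509169 to 62519918, minus strand), which joins 2 aminolevulinate molecules, likewise had its highest mean in the 30 to 50% range, 1626 ± 929 and 4558 ± 600. Uros (ENSMUSG00000030979, chromosome 7, 133686243 to 133710072, minus strand), the uroporphyrinogen III synthase, peaked there too, at 209 ± 31.2 and 208 ± 16.9. Ppox (ENSMUSG00000062729, chromosome 1, 171275990 to 171281186, minus strand), the protoporphyrinogen oxidase, peaked there at E16.5 with 329 ± 55.2 and was level between the 2 upper ranges at P3, with 482 ± 48.3 and 487 ± 88.9. On plain CPM the globin share itself lowers the highest range, and there Slc25a37, Urod, Ppox and Fech also had their highest mean in the 30 to 50% range at both stages, while Alas2 still had it in the highest range and Cpox at E16.5 moved to the 10 to 30% range (1664 ± 394 CPM), as did Uros (135 ± 23.5 CPM).

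**Figure D2:**
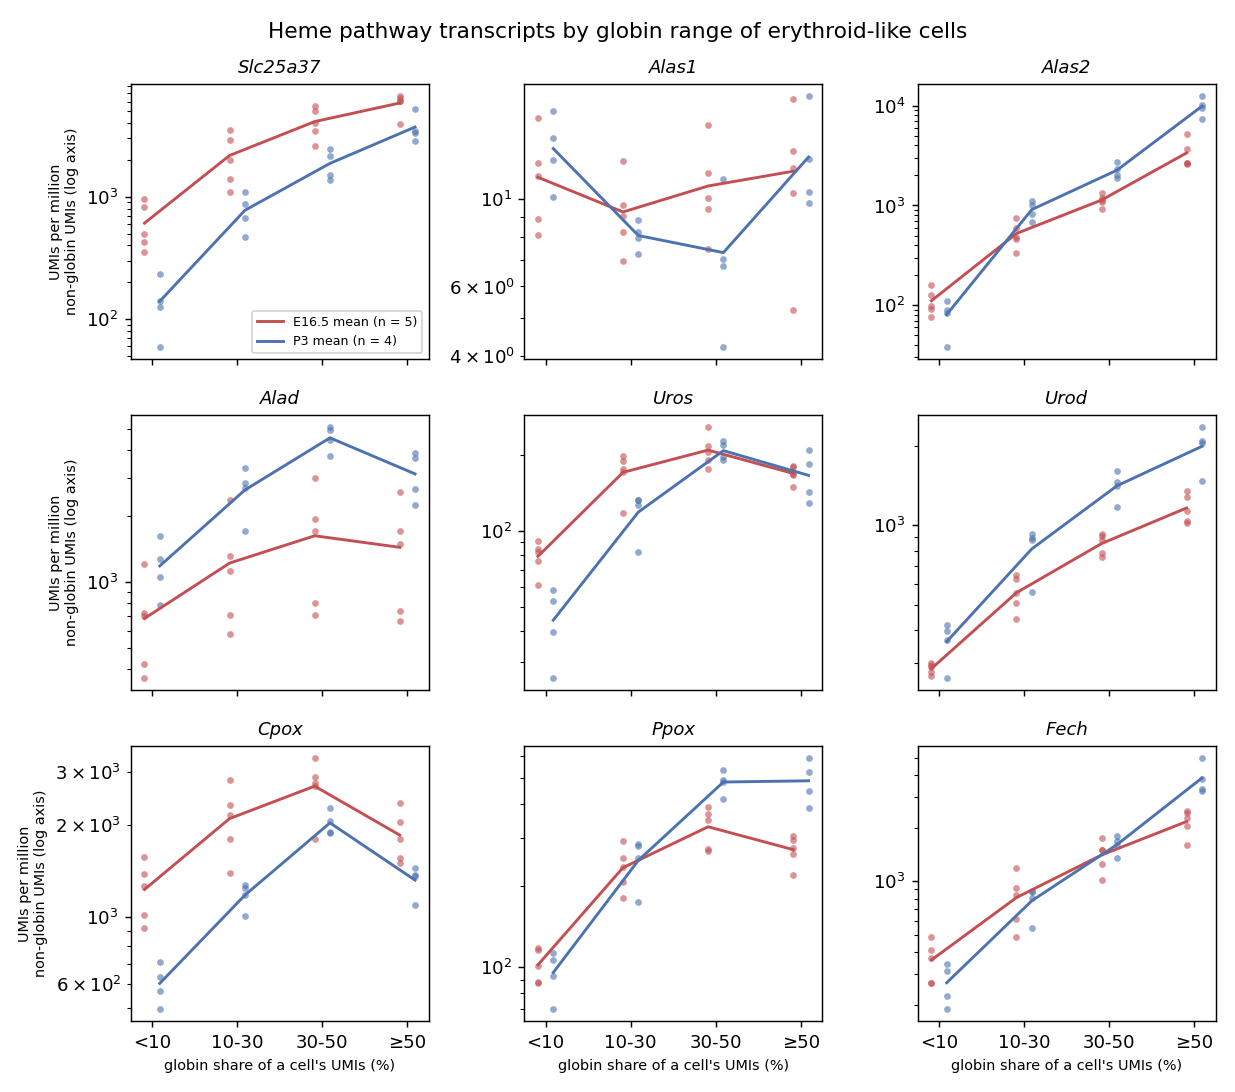
Level of each of the 9 genes (ngCPM, log axis, a separate scale per panel) against the globin share of erythroid-like cells; points are libraries and lines are means (5 libraries at E16.5 in red, 4 at P3 in blue). Alas2, Slc25a37, Urod and Fech climb to the highest range at both stages, Cpox, Alad and Uros are highest in the 30 to 50% range, and Alas1 has no such course.

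The comparison of stages asked how the pathway differs between the fetal and the newborn liver. It set 5 E16.5 libraries against 4 P3 libraries, with positive log2 fold changes meaning higher at P3. Stage went together with TrypLE, with the version of the counting software and with the gene list, and these cannot be told apart. Opposite-strand genes overlap exons of Alas1, Alas2, Cpox, Ppox and Slc25a37 in GENCODE M21, and those of Alas1 (4930500F10Rik) and Slc25a37 (Gm27223) were listed at E16.5 only; whether counting used the strand was not given in the sources used here. Globin UMIs outside erythroid-like cells were also more numerous at E16.5: in each class named at both stages, other than hepatocyte-like, all fetal medians lay above all P3 medians.

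Over all passing barcodes together, 7 of the 9 genes passed the test at an adjusted p under 0.05, 1 higher and 6 lower at P3, in a comparison where 54% of 14504 genes passed (27.6% higher, 26.4% lower). A lower sum over a whole liver cannot tell fewer erythroid cells from less RNA per cell. Slc25a37 had the largest difference of the 9, -2.71 (SE 0.317, adjusted p = 6.83e-05), followed by Cpox at -1.79 and Uros at -1.56. Alas1 was higher by 0.76 (SE 0.188, adjusted p = 0.0059). The median over the 9 genes was -0.86, beside 0.02 over all genes tested. The Alas1 call was lost without libraries A and B, whose genotypes were unclear (0.37, adjusted p = 0.061), as was that of Urod (-0.43, adjusted p = 0.11), which was also lost without library B alone (adjusted p = 0.052). Alas2 did not pass (-0.57, adjusted p = 0.051), but was lower without the shared library (-0.70, adjusted p = 0.013), without library C (-0.76, adjusted p = 0.018), by DESeq2 (adjusted p = 0.024) and with a minimum of 2000 UMIs (adjusted p = 0.047). On plain CPM its means had the opposite order, with 586 at E16.5 against 629 at P3, and the groups overlapped.

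Within erythroid-like cells 5 of the 9 were lower and none higher at P3, where 52.9% of 11922 genes passed (27% higher, 25.9% lower). Of 6 genes of erythroid maturity, 3 were lower as well: Tfrc, the transferrin receptor (-1.59), Xpo7, a nuclear exporter of late erythroblasts (-1.51), and Bpgm, which makes the red cell metabolite 2,3-bisphosphoglycerate (-0.98). The median over the 6 was -0.50, but they join genes of early cells, such as Kit, with those of late ones, such as Xpo7. It therefore gives no direction of maturity. Cells of the lowest globin range, as given above, took a larger share of the class at P3. The part of that share and of maturity in these differences was not tested. Fech and Ppox, lower in the class as a whole, were higher at P3 within the highest range (0.91 and 0.93). Slc25a37 measured 3897 ngCPM in Jag1+/+ replicate 1, 4845 in the shared library, 3075 in Jag1Ndr/+ replicate 1, and 3483 and 5305 in the Jag1Ndr/Ndr replicates. In P3 libraries A to D it measured 729, 855, 854 and 1404. The lowest E16.5 library thus lay well above the highest P3 library, and the difference was -2.26 on the log2 scale (SE 0.230, adjusted p = 2.39e-05). Cpox measured 1968, 2668, 1478, 1566 and 2228 ngCPM at E16.5 in the same order and 811, 845, 948 and 1029 at P3, again without overlap, at -1.28 on the log2 scale (SE 0.171, adjusted p = 0.00012). On plain CPM the Cpox groups overlapped, the 5 fetal libraries spanning 486 to 1454 and the P3 libraries 397 to 645. Uros was lower by a log2 fold change of -1.10 and Fech by -0.72, and Ppox by -0.42. On plain CPM, which counts globin in the total, Ppox had the opposite order of means (102 at E16.5 against 127 at P3) and Fech was level (621 against 622). The Ppox call was lost without Jag1+/+ replicate 1 (adjusted p = 0.059), without library A (adjusted p = 0.069), without library B (adjusted p = 0.067), and without both (adjusted p = 0.21). Alas2 did not pass, with 1954, 1471, 1903, 2607 and 1840 ngCPM at E16.5 and 2231, 1805, 2384 and 1597 at P3, which overlap, and a log2 fold change of -0.14 (adjusted p = 0.59); on plain CPM every P3 library lay above every E16.5 library (means 1185 and 759).

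The relation between Slc25a37 and Alas2 changed with stage within libraries, where neither depth nor scaling enters. Erythroid-like cells held 1.99, 3.29, 1.62, 1.34 and 2.88 Slc25a37 UMIs per Alas2 UMI in the 5 E16.5 libraries and 0.327, 0.474, 0.358 and 0.879 in libraries A to D. Every E16.5 library lay above every P3 library. The difference in mean log2 ratio had a two-sided p of 0.016 in an exact permutation test over the 126 divisions of the 9 libraries, the smallest p this design allows. The pair joins Slc25a37, called lower at P3 in these cells, to Alas2, which was not called, and was chosen with earlier results known. This p therefore restates the separation of the listed values and is not separate evidence. Over the other named classes fetal ratios spanned 1.67 to 4.76 and those of pups 0.264 to 1.14. The split by stage was thus not particular to erythroid-like cells, and the part of erythroid RNA in those classes was not tested. The ratio is read only across libraries and not as a comparison of the 2 genes' abundance. Library D, with the label Jag1Ndr/+, had the highest ratio at P3, and the other 3 P3 libraries lay within 0.327 to 0.474.

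**Figure D3:**
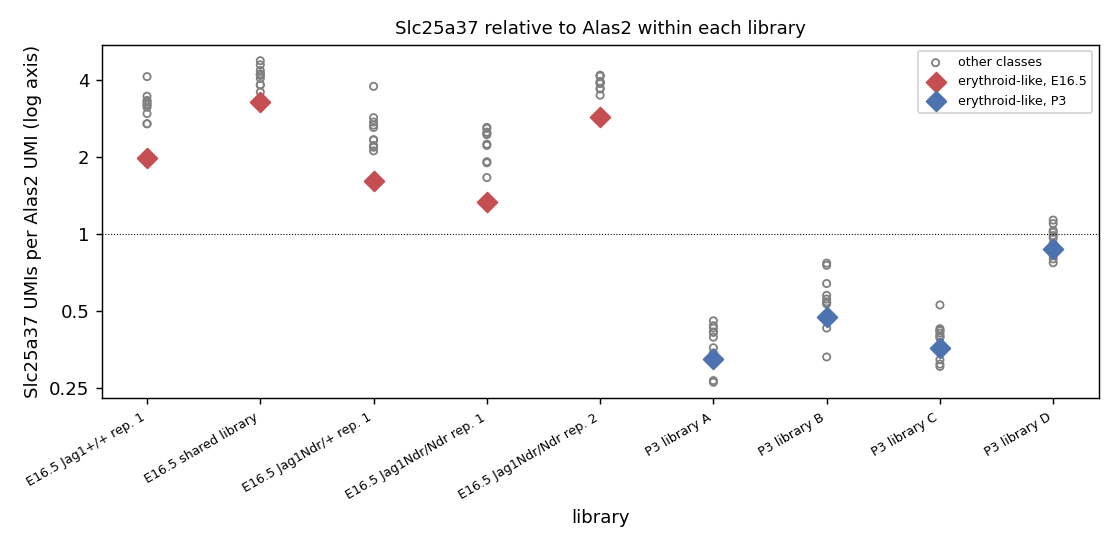
Slc25a37 UMIs per Alas2 UMI (log axis) in each library; filled diamonds are erythroid-like cells (red E16.5, blue P3), open circles are the other named classes, and the dotted line marks equal counts. Erythroid-like ratios are 1.34 to 3.29 in fetal libraries and 0.327 to 0.879 in P3 libraries, and at E16.5 the other classes of a library all lie above its erythroid-like cells, up to 3.78 against 1.62 in Jag1Ndr/+ replicate 1.

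Hepatocyte-like cells showed 6 calls, 1 higher and 5 lower, beside 41.3% of 10897 genes called (20.9% higher, 20.4% lower). Of the 5 maturity genes tested there, 4 were lower at P3 (Tfrc, Xpo7, Kit and the proliferation gene Mki67). The median over the 5 was -0.97, beside -0.04 over all genes, and it too joins genes of early and late cells. The part of erythroid RNA and its maturity in the 5 lower calls was not tested. Alas1 was higher at P3 by 1.18 (SE 0.259, adjusted p = 0.0027) and Slc25a37 lower by a log2 fold change of -2.16 (SE 0.219). Alas1 in ngCPM was 21.8, 20.1, 22.5, 20.6 and 18.6 at E16.5 and 43.4, 58.6, 13.6 and 50.8 in libraries A to D. Library C was again the exception, with 9 Alas1 UMIs in 158 cells. Without libraries A and B 3 of the 9 genes passed, all lower, and the Alas1 call was lost (0.77, adjusted p = 0.14). The call of Ppox (-0.75) was lost without Jag1+/+ replicate 1, Jag1Ndr/Ndr replicate 1, library A or library D (adjusted p from 0.058 to 0.094), and that of Fech (-0.58) without any 1 library other than C (adjusted p from 0.053 to 0.14). Alas2 did not pass in the whole class (0.73, adjusted p = 0.053). It passed, higher at P3, without library D (0.98, adjusted p = 0.0033), without Jag1Ndr/Ndr replicate 1 (adjusted p = 0.038), and under DESeq2, a minimum of 2000 UMIs, removal of globin genes or removal of the top 10% of doublet scores (adjusted p from 0.044 to 0.049). It was lower at P3 in the cells under 10% globin (-1.14, adjusted p = 0.0076); its sign therefore depended on the globin content of the cells compared.

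When the stages were compared within a globin range, the size of the stage difference depended on the range, and none of the 9 genes was called lower at P3 in the lowest range and higher in the highest. A range did not equalise the globin share: its median in the lowest range was 2.67% to 6.99% in the fetal libraries and 0.336% to 1.05% in the P3 libraries, without overlap, and in the highest 61.9% to 83.2% against 77.1% to 86.8%. The part of this in the differences was not tested. In the lowest range 4 genes passed, 1 higher and 3 lower, where 36.9% of 9967 genes did (18% higher, 18.9% lower). The higher one was Urod (0.39, adjusted p = 0.031), whose call was lost without Jag1+/+ replicate 1, Jag1Ndr/Ndr replicate 1, or library B, C or D. Alad was also higher at P3 in the mean there (1184 against 681 ngCPM), at 0.84, and missed the threshold (SE 0.310, adjusted p = 0.0502). It was called by DESeq2 (0.85, adjusted p = 0.022), without a filter on low counts (adjusted p = 0.036), and without Jag1+/+ replicate 1 (1.13, adjusted p = 0.012) or library A (0.99, adjusted p = 0.034). In the 10 to 30% range 5 passed, 3 higher and 2 lower, beside 31.6% of 9163 genes (15.7% higher, 15.9% lower); 3 passed without library B, C or D, where the calls of Alad and Urod were lost. That of Alad was also lost without the shared library, Jag1Ndr/+ replicate 1 or Jag1Ndr/Ndr replicate 2 (adjusted p from 0.0501 to 0.058). In the 30 to 50% range 5 passed, 4 higher and 1 lower, beside 54.3% of 8744 genes (26.3% higher, 27.9% lower). In the highest range 5 passed, all of them higher at P3, beside 53.8% of 10856 genes (27.1% higher, 26.7% lower). DESeq2 also called 2 genes lower there, Slc25a37 (-0.56, adjusted p = 0.024) and Cpox (-0.38, adjusted p = 0.0064). The median log2 fold change over the 9 genes went from -0.37 in the lowest range to 0.03, 0.27 and 0.86, while the median over all genes tested lay between -0.04 and 0.00 in every range.

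Alas2 carried the widest span. In the lowest range it measured 91.7, 161, 98.2, 77.0 and 127 ngCPM at E16.5 and 38.3, 83.3, 111 and 90.5 in libraries A to D, overlapping and uncalled (-0.40). In the highest range it measured 3685, 2582, 2680, 5210 and 2667 at E16.5 and 10085, 9571, 12452 and 7402 at P3. Every P3 library there lay above every E16.5 library, and the difference was 1.62 (SE 0.311, adjusted p = 0.00072). Fech in the highest range measured 2453, 2298, 1614, 2504 and 2050 at E16.5 and 3268, 3337, 4984 and 3826 at P3, without overlap, at 0.91 (SE 0.227, adjusted p = 0.0042). Ppox (0.93), Urod (0.86) and Alad (1.16) also rose there. The Alad call in that range was lost without library C (adjusted p = 0.061) and without library D (adjusted p = 0.060).

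Slc25a37 and Cpox were lower at P3 in cells with little globin, where the mix of clusters was not held equal. The P3 erythroid-like cluster with the least globin (3523 barcodes, median share 0.418%) averaged 81.8 ngCPM for Slc25a37. Another, with a median share of 6.97%, averaged 491, and neither had a marker of the class among its leading genes. The part of this mix in the differences of the lowest range, and in comparisons that use them, was not tested. Slc25a37 in the lowest range measured 497, 954, 425, 353 and 820 ngCPM at E16.5 and 59.3, 125, 141 and 234 at P3, without overlap, at -2.07 (SE 0.357, adjusted p = 0.0010). It remained lower by -1.40 and -1.05 in the next 2 ranges, and did not pass in the highest (-0.55, adjusted p = 0.069), where it did without Jag1Ndr/+ replicate 1 (-0.66) or library D (-0.75). Its mean was also lower at P3 in every other class named at both stages. Neutrophil-like cells averaged 1065 ngCPM at E16.5 and 55.5 at P3, and mesenchymal-like cells 2147 and 552. The lowest range averaged 609 at E16.5, below all these classes, and 140 at P3, within their span. The part of RNA from other cells in the Slc25a37 differences was not tested. Cpox was lower by -0.97 in the lowest range and by -0.75 in the next, and did not pass in the 2 upper ranges (-0.32 and -0.37); without Jag1Ndr/+ replicate 1 it was lower in the 30 to 50% range (-0.44, adjusted p = 0.029). Uros was lower in the lowest range (-0.80, adjusted p = 0.0071), a call lost without libraries A and B (-0.47, adjusted p = 0.0502). It did not pass in the 10 to 30% range (-0.44, adjusted p = 0.095), where it did without Jag1Ndr/+ replicate 1 (-0.54, adjusted p = 0.040). Alas1 passed in none of the 4 ranges, with log2 fold changes from -0.49 to 0.29; without library B it was lower in the 30 to 50% range (-0.82, adjusted p = 0.036).

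**Figure D4:**
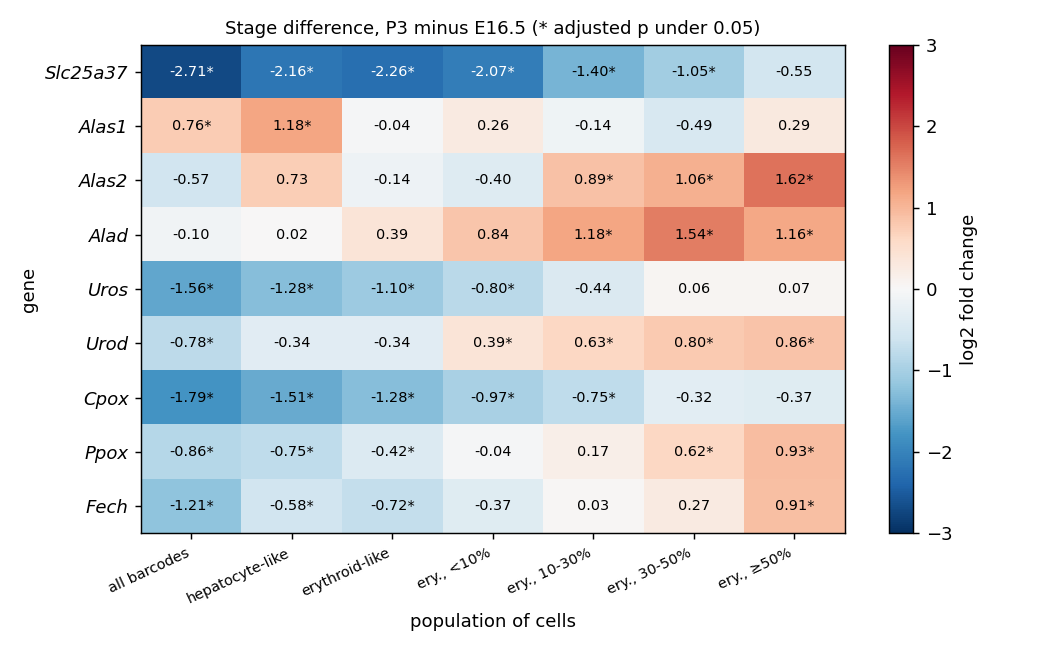
Log2 fold change of each gene between stages (P3 minus E16.5; red higher at P3, blue lower) in 7 populations of cells, with an asterisk where the adjusted p of edgeR's quasi-likelihood test was under 0.05. Slc25a37 goes from -2.07 in the lowest globin range to -0.55 in the highest, and Alas2 from -0.40 to 1.62.

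The change of the stage difference between ranges was tested in 1 model with a term for each library, as the difference in the highest range minus that in the lowest, a test added after the values by range had been seen. It tests a change in size and not in sign: Slc25a37 and Cpox had negative fold changes in both ranges. Of the 9 genes 6 passed and all 6 had a positive difference, beside 43.5% of 11277 genes (16.9% positive, 26.5% negative). The difference was 2.04 for Alas2 (SE 0.390, adjusted p = 0.00031), 1.46 for Slc25a37 (SE 0.291, adjusted p = 0.00045) and 1.20 for Fech (SE 0.232, adjusted p = 0.00034). It was 0.89 for Ppox, 0.79 for Uros and 0.48 for Cpox (adjusted p = 0.020). The Cpox call was lost without Jag1Ndr/Ndr replicate 2 (adjusted p = 0.051) and without library A (adjusted p = 0.095), and Urod passed without Jag1Ndr/Ndr replicate 1 (0.52, adjusted p = 0.013). Alad (0.34, adjusted p = 0.14), Urod (0.40, adjusted p = 0.091) and Alas1 (-0.01, adjusted p = 0.98) did not pass. The median over all genes was -0.13 and over the 9 genes 0.79. With DESeq2's size factors the median over all genes moved by 0.18 to 0.05 and the share of positive calls from 38.9% to 52.9%; 8 of the 9 then passed. With no filter on low counts the median moved the other way, to -0.35, with 27.4% of calls positive, and 5 of the 9 passed. The Cpox call was lost there (0.31, adjusted p = 0.22), as it was without libraries A and B (0.39, adjusted p = 0.14).

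Markers of maturity did not run in step between stages. Of 6 maturity genes all 6 passed the same test, 4 positive and 2 negative. Xpo7 was lower at P3 by -2.89 in the lowest range and higher by 0.69 in the highest, and its level rose from 127.9 to 1765 ngCPM along the ranges in fetal cells, and in P3 cells from 16.54 to 2634 ngCPM. Bpgm went from -1.11 to 0.89. Tfrc was lower by -1.19 in the lowest range and did not pass in the highest (-0.11), and Kit, the receptor of early progenitors, was lower by -1.56 in the highest. Median depth per cell also differed, at 12848 to 38853 UMIs for fetal and 8848 to 19882 UMIs for P3 cells of the lowest range, and 5372 to 10143 against 2393 to 5254 in the highest. The part of these differences and of globin RNA outside erythroid-like cells in the change between ranges was not tested.

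The partner genes of the pathway were read by the same test. Of 14 partners and carriers, 11 passed in erythroid-like cells (2 higher, 9 lower at P3), beside 52.9% of all genes, and 7 in the highest range (3 higher, 4 lower), beside 53.8%. Their median log2 fold changes were -0.56 and 0.18, beside 0.02 and -0.01 over all genes. Slc25a38, the glycine importer of erythroid mitochondria, was lower in erythroid-like cells (-0.82) and in the lowest range (-0.62), and did not pass in the highest (0.09). Slc25a28, the iron importer of non-erythroid tissues and paralogue of Slc25a37, was higher at P3 in erythroid-like cells (0.92) and in the 3 ranges under 50% (0.64, 0.72 and 0.96), opposite in sign to Slc25a37 in each.

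Also lower in erythroid-like cells were Fam210b (-1.59), a mitochondrial protein of erythroid heme formation, and Abcg2 (-0.99), a porphyrin exporter. Ppargc1a, a coactivator that induces Alas1 in fasted liver, was lower by -3.05, at means of 0.395 CPM at E16.5 and 0.0635 CPM at P3. In the highest range Tmem14c, a porphyrin transporter of the inner mitochondrial membrane, was lower (-1.22) along with Pgrmc1 (-1.22), while Slc25a39, a mitochondrial glutathione carrier, was higher (1.27). Flvcr1, the heme exporter, was lower by -2.42 in the 30 to 50% range.

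Of 9 regulators, 5 passed in erythroid-like cells (1 higher, 4 lower) and 6 of the 8 tested in the highest range (4 higher, 2 lower), beside the same 52.9% and 53.8% of all genes, and the share in erythroid-like cells was thus near that of all genes. Gata1 was higher at P3 in erythroid-like cells (0.39) and in all 4 ranges (0.38, 0.73, 1.21 and 0.86). Eif2ak1, the heme-regulated kinase that slows globin translation when heme is short, did not pass in the 2 lower ranges (0.19 and 0.50) and was higher in the 2 upper ones (0.81 and 1.72). It averaged 290.7 ± 26.2 ngCPM in the highest range at E16.5 and 895 ± 211 at P3 (SD, n = 5 and n = 4). Aco1 and Ireb2, the iron regulatory proteins that bind the element printed above, were both lower in the highest range (-1.70 and -0.69), and Ireb2 was lower in the lowest range too (-0.90).

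The genotype comparison asked whether homozygosity for the Nodder allele alters the pathway at E16.5. The 2 Jag1Ndr/Ndr libraries were set against the 3 libraries without a homozygous label. None of the 9 genes passed in all passing barcodes, where 0% of 16262 genes passed, in erythroid-like cells, where 0% of 13509 passed, or in hepatocyte-like cells, where 0% of 11563 passed. No member had an unadjusted p under 0.05 either, while 166, 113 and 209 genes did in these 3 populations. DESeq2 called 7, 3 and 0 genes, none of them among the 9. Log2 fold changes (Jag1Ndr/Ndr minus the rest) in erythroid-like cells ran from -0.67 (SE 0.529) for Alad to 0.33 (SE 0.300) for Alas2. Ppox in ngCPM was 272, 279 and 246 in the 3 libraries and 231 and 229 in the Jag1Ndr/Ndr pair, without overlap, but did not pass (-0.19, SE 0.192), and on plain CPM the groups overlapped. Alas1 in hepatocyte-like cells did not overlap on plain CPM (means 13.8 in the pair and 15.3 in the rest). It did not pass (-0.09, SE 0.186), and on ngCPM its groups overlapped. The share of all genes without overlap between so few libraries was not counted, so these separations are not read as a result. A p that misses the threshold does not show that the genotypes are alike.

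Alad differed widely between the E16.5 libraries. In erythroid-like cells it measured 2330 ngCPM in Jag1+/+ replicate 1, 714 in the shared library, 1548 in Jag1Ndr/+ replicate 1, and 1296 and 650 in the Jag1Ndr/Ndr replicates. The low libraries, the shared library and Jag1Ndr/Ndr replicate 2, are those with replicate number 2 in the labels, and the other 3 have number 1. Of 1392 genes with at least 100 ngCPM in erythroid-like cells, 17 (1.22%) had a ratio between libraries at least as large as Alad's, and the median gene had 1.46. The same 2 libraries had the highest Slc25a37 (4845 and 5305), the highest Cpox (2668 and 2228) and the lowest Alas2. Alad, Slc25a37, Cpox and Alas2 thus split by replicate number without overlap, a pattern singled out after the values were seen. The share of all genes that split in this way was not counted. Over all genes in erythroid-like cells, deviations from the genotype group means correlated at 0.35 to 0.61 between libraries of the same number and at -0.61 to -0.35 between those of different number. The second range is the first with its sign turned, because the deviations of the 2 Jag1Ndr/Ndr libraries mirror each other. With the replicate number as a block, 0 genes passed the genotype test in each of the 3 populations.

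**Figure D5:**
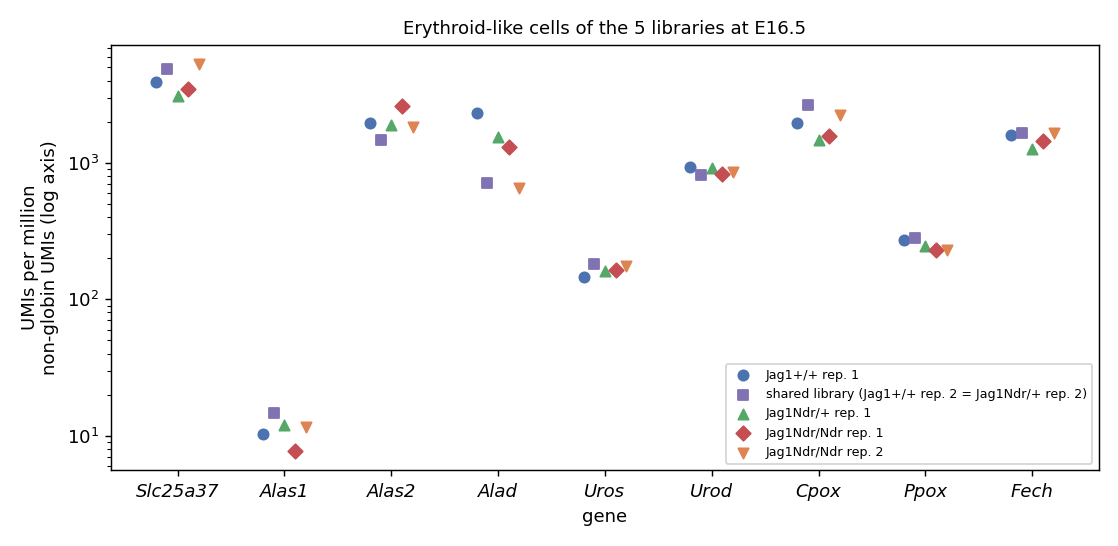
Level of each gene (ngCPM, log axis) in erythroid-like cells of the 5 E16.5 libraries, 1 symbol per library. The 2 Jag1Ndr/Ndr libraries overlap the other 3 for each gene other than Ppox (229 and 231 against 246 to 279), and Alad spreads from 650 to 2330. The share of all genes without overlap was not counted.

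At P3 only library C (labelled homozygous) and library D (labelled heterozygous) carried a usable label, with 1 library each and no test. In erythroid-like cells, Alas2 measured 1473 CPM (exact 95% Poisson interval 1462 to 1484) in C and 1000.3 CPM (990.1 to 1011) in D, a ratio of 1.47. Slc25a37 measured 528 CPM (521 to 535) in C and 879 CPM (869 to 889) in D, a ratio of 0.601. Alad was 1554 CPM (1543 to 1566) against 1391 CPM (1379 to 1403). These intervals cover counting error only, and libraries A and B, of unclear genotype, spanned 1092 to 1177 CPM for Alas2 and 357 to 557 CPM for Slc25a37. Library D alone lay above that span for Slc25a37 and library C alone for Alas2, and a difference between 2 animals cannot be assigned to genotype.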

How the data were processed

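The deposited values were whole-number UMI counts per gene and cell barcode in 12 matrices; the authors deposited them without normalization. Per the submitters' processing notes, Cell Ranger 2.1.1, R 4.1.2, Seurat and the mm10 build were used, whereas per the file headers the matrices came from 10x software 3.1.0 at E16.5 and 3.0.2 at P3. Whether counting used the strand was not given in the sources used here. Total UMIs over passing barcodes ran from 72777843 to 253187351 per library.

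A barcode was kept from 1000 UMIs upward if mitochondrial UMIs did not exceed 15%. Doublets were marked by simulated doublet scores (4.11% to 13.4% per library). They were left out of the named classes and ranges, with clusters over 50% doublets. The population of all passing barcodes kept both. Cells were clustered per stage (scanpy 1.11.5, 2000 variable genes without the pathway genes, 30 components, 15 neighbours, Leiden resolution 1) and named by fixed markers. At P3 the mesenchymal-like cluster was led by Ins2 and Ins1.

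Counts were summed per library and population, leaving out populations under 20 cells, and tested with edgeR 4.0.16 (R 4.3.3; filterByExpr, TMM, quasi-likelihood F test, Benjamini-Hochberg over all genes tested, threshold 0.05). Globin genes were dropped before the fits within globin ranges. The tests were checked on simulated counts. That each library came from a separate animal rests on labels that the shared matrices contradict in part, so p-values measure the spread between these libraries. Replicate numbers were compared with deviations from group means. For genotype, same-numbered libraries correlated at 0.23 to 0.43 over all passing barcodes and at 0.35 to 0.61 in erythroid-like cells, but from -0.013 upward in hepatocyte-like cells; the labels do not say what a number shares, and with 2 Jag1Ndr/Ndr libraries their deviations mirror each other.

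The 9 genes, the lists and the tests were chosen with earlier results of these data known. All 9 are named; of the lists, at most the 6 largest called changes per comparison, followed through the other populations, and Slc25a38, Slc25a28, Gata1 and Eif2ak1 throughout. Some named items are not reported here. The interaction of stage and range, the fit on hepatocyte-like cells under 10% globin and the removal of the top 10% of doublet scores were added after the data had been seen. Alternatives were DESeq2 1.42.0, its size factors in edgeR, no filter, the replicate block, other globin handling, a minimum of 2000 UMIs, X chromosome status as a covariate (genotype), doublets kept and leaving out libraries. Promoter windows are from RefSeq and positions from GENCODE M21 (GRCm38). The second Jag1Ndr/Ndr matrix of P3 shared its barcodes with libraries A and B and was not used.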

Additional observations from a re-analysis of the deposited data

Results flagged for a closer look

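Among 126 sets of library values checked, 6 held a library whose gap to the others exceeded Dixon's 95% critical value; chance flags about 1 set in 20. Over all passing barcodes at E16.5, Alas1 was 41.9 CPM in the shared library and 19.7 to 25.6 CPM in the other 4. Uros in hepatocyte-like cells was 80.9 CPM in Jag1Ndr/Ndr replicate 1 at E16.5, against 51.3 to 58.8 CPM. In library A at P3 it was 12.9 CPM, against 29.9 to 31.9 CPM. In the 10 to 30% globin range at P3, library A was also lowest for Uros, at 82.1 CPM over non-globin UMIs against 127 to 133, and for Urod, at 557 against 878 to 926. Slc25a37 in the highest range at E16.5 was 3941 in Jag1Ndr/+ replicate 1, against 6104 to 6655.

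The stage difference itself differed between the highest and the lowest globin range in edgeR's test of the interaction for 6 genes, all with a positive difference on the log2 scale. The values were 2.04 for Alas2, 1.46 for Slc25a37, 1.20 for Fech, 0.89 for Ppox, 0.79 for Uros and 0.48 for Cpox.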

How the results depend on the processing

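Beyond single libraries, 492 stage differences of the 9 genes kept their direction and side of the threshold, 11 lost and 18 gained a call, and 1 reversed: Alas2 in hepatocyte-like cells, -1.14 with only cells under 10% globin. Of the changes between ranges, 50 kept both, 2 gained a call (Alad and Urod, with DESeq2's size factors) and 2 lost one (Cpox, without a filter and without libraries A and B). For genotype all 234 values, and the 135 with 1 library left out, kept both. Without libraries A and B, 3 genes were called in hepatocyte-like cells. Leaving out 1 library gave 6 to 8 genes called over all passing barcodes, 4 to 5 in erythroid-like and 4 to 6 in hepatocyte-like cells, 3 to 5 in each of the 2 lower ranges, 5 to 6 in the 30 to 50% range, 4 to 6 in the highest, 5 to 7 for the interaction, and 0 for genotype. The number of genes higher on CPM in erythroid-like than in hepatocyte-like cells at both stages was 7, and 4 to 8 when 1 library was left out, the 4 without the shared library. Genotype without a filter called 2, 14 and 44 genes, none of them among the 9.

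The replicate numbers were not shown to pair the samples for stage; for genotype they went with the libraries' deviations over all passing barcodes and in erythroid-like cells, but not in hepatocyte-like cells. With a replicate block, 8 of the 9 genes were called over all passing barcodes, 5 in erythroid-like cells, 5 in hepatocyte-like cells, 5 in each globin range and 0 for genotype. The block added the calls of Alas2 over all passing barcodes (-0.63, adjusted p = 0.022) and of Alad in the lowest range (0.84, adjusted p = 0.019), removed that of Fech in hepatocyte-like cells (adjusted p = 0.062), and changed no other call of the 9 in these populations. Correlations of same-numbered libraries ran from -0.013 to 0.61 for genotype and from -0.41 to 0.48 for stage. In hepatocyte-like cells of library C Alas1 rests on 9 UMIs, at 9.91 CPM (exact 95% Poisson interval 4.53 to 18.8). Library D held 35 Alas1 UMIs in this class, at 43.8 CPM (30.5 to 60.9), from fewer UMIs in total (799802 against 907879).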
